A study of Mus musculus with 18 samples.

Results

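The interleukin-6 (IL-6) family genes Il6, Il11, Lif and Osm, which encode secreted ligands, and Il6ra, Lifr, Osmr and Il6st, which encode receptor chains, were followed in 3 organs of septic mice (liver, intestine, lung) with and without inhaled hydrogen. The members were taken by gene symbol, and all 8 were found among the 24346 symbols of the deposited tables. Male C57BL/6 mice, 9 weeks old, had cecal ligation and puncture, an operation that releases gut bacteria into the abdomen and leads to sepsis. The H2 mice then breathed 7% hydrogen continuously in a box holding a shared cage, and the control mice had the same operation and no hydrogen, so housing and gas cannot be told apart. Tissue was taken at 24 h, and each of the 6 groups (H2 liver, H2 intestine, H2 lung, control liver, control intestine and control lung) holds 3 libraries. All 6 groups are septic, and unoperated or sham-operated animals are not analysed here. The labels do not say which organs came from 1 mouse, so p values measure the spread between these libraries. Levels are FPKM, which count sequenced fragments relative to the length of the transcript and to the size of the library, so that levels of different genes can be set side by side.

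Ligands of this family bind a receptor chain of their own and then join gp130, the signalling chain encoded by Il6st that the family shares. IL-6 binds the receptor encoded by Il6ra, IL-11 a receptor of its own, LIF the chain encoded by Lifr, and oncostatin M in the mouse mainly the chain encoded by Osmr. The joined receptors activate JAK kinases and the transcription factor STAT3, which switches on its own inhibitor SOCS3 and, in hepatocytes, the acute-phase plasma proteins. IL-6 is a widely used marker of the severity of sepsis.

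Marker genes matched the organ given in every label. Alb, made by hepatocytes, was at 9335 FPKM or more in the liver, the enterocyte gene Vil1 at 332 FPKM or more in the intestine and the surfactant gene Sftpc at 20779 FPKM or more in the lung, and each was at most 5.95 FPKM in the other organs. The depth implied by the value of 1 fragment lay between 9.77 and 17.78 M fragments. Some libraries stood apart. The club cell gene Scgb1a1 was at 3.22 to 5.27 FPKM in the liver and intestine libraries numbered 1 of both treatments and at 0 in those numbered 2 and 3. The number of genes passing an adjusted p of 0.05 over all genes was 2 of 10041 in the liver and 2834 without control liver 2, and 1 of 13424 in the lung and 3295 without control lung 3. Calls of members that control liver 2 or control lung 3 decide are given with and without them. Of the 6 liver fits that left out 1 library, only that without control liver 2 called members, along with 2834 of 10057 genes. Of the 6 lung fits, only that without control lung 3 did, along with 3295 of 13424 genes.

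The upstream regions of Il6, Lif and Osmr are shown because Il6 and Osmr were the members that passed the test over the 3 organs, and because Lif was the member whose levels followed those of Il6 most closely. Each sequence is the 250 bases before a RefSeq transcription start (GRCm38.p6), read in the direction of the gene. Capitals mark matches, on either strand, to an NF-kB motif (GGGA, any base, TTTCC), an AP-1 motif (TGANTCA) or a STAT motif (TTCNNNGAA).
Il6 (chr5:30012864-30013113, plus strand): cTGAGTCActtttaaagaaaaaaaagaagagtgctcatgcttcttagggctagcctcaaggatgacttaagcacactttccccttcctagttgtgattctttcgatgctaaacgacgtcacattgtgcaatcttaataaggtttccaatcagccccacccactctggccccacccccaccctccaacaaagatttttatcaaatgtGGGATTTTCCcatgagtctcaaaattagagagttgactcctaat
Lif (chr11:4257318-4257567, plus strand): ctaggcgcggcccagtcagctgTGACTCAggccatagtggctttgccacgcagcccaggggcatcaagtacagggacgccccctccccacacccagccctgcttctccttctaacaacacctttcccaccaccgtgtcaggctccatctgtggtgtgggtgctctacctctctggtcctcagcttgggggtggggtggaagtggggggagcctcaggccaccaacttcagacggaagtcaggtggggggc
Osmr (chr15:6874314-6874563, minus strand): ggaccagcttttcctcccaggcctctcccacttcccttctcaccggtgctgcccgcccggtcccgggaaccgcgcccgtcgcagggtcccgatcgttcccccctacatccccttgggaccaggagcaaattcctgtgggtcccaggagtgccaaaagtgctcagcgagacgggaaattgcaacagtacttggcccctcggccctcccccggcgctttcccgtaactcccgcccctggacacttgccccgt
The Il6 region held the NF-kB match GGGATTTTCC at positions -44 to -35, counted from the start, and the AP-1 match TGAGTCA at -249 to -243. The Lif region held the AP-1 match TGACTCA at -228 to -222, and no letters of the Osmr region matched any of the 3 motifs. Of 32851 promoter windows of the same length in the RefSeq table, 0.356% held the NF-kB motif, 6.75% the AP-1 motif and 7.02% the STAT motif. Windows were given for 7 of the 8 members. A match describes the letters and not binding of a factor.

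In the mm10 build (GENCODE vM21 annotation) the members are protein-coding genes, and 4 of them lie in neighbouring pairs. Osm (chr11:4236420-4241026) and Lif (chr11:4257557-4272514) lie on the plus strand 16.53 kb apart. Osmr (chr15:6813577-6874969, minus strand) and Lifr (chr15:7090614-7197489, plus strand) lie 216 kb apart and point away from each other. Il6 is at chr5:30013114-30019981, Il6ra at chr3:89864059-89913196, Il6st at chr13:112464070-112510086 and Il11 at chr7:4772373-4782859. FPKM are per gene and cover all its exons, so transcripts of 1 gene cannot be told apart here.

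The ligand gene Il6 and the receptor chain gene Osmr were lower in H2 mice in the mean over the 3 organs. Il6 fell by 2.15 on the log2(FPKM + 1) scale (SE 0.65, limma adjusted p = 0.0486), and Osmr fell by 0.89 (SE 0.17, limma adjusted p = 0.0131). These were 2 of 7 members tested, while 9.62% of all 13362 genes tested passed in this comparison, 5.23% lower and 4.39% higher. The median change of the 7 members was -0.62, and that of all genes tested was 0.0027. The other 5 did not pass: Lif was at -0.62 ± 0.23 (SE, adjusted p = 0.0945), Osm at -0.68 ± 0.30 (adjusted p = 0.144), Lifr at 0.22 ± 0.096 (adjusted p = 0.138), Il6st at -0.092 ± 0.14 (adjusted p = 0.702) and Il6ra at -0.048 ± 0.11 (adjusted p = 0.793). Lif passed without control intestine 2 (-0.78, adjusted p = 0.0260) and without control lung 3 (-0.71, adjusted p = 0.0472). Il11 was under the filter of a mean of 1 FPKM. In no single organ did a member pass limma's test, where 0.0199% of liver genes, 0.0084% of intestine genes and 0.00745% of lung genes passed. At an unadjusted p under 0.05 were 4 of 5 liver members, 2 of 7 intestine members and 3 of 7 lung members. Of all genes tested, 2113 of 10041 in the liver, 1485 of 11910 in the intestine and 3095 of 13424 in the lung had such a p.

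The call of Osmr held in each of the 18 fits that left out 1 library, at adjusted p between 0.000139 and 0.0323. The call of Il6 held in 4 of these 18, without control liver 2, control intestine 2, control lung 3 or H2 intestine 1, and was lost in the other 14, at adjusted p between 0.0103 and 0.102 over all 18. Without the libraries numbered 1 of every group neither passed (Il6 at -1.74, adjusted p = 0.349; Osmr at -0.79, adjusted p = 0.239). The fit of 18 libraries takes libraries of different organs as independent, which the labels do not settle. If organs of 1 mouse vary together, its p values are too small. When the organs were first averaged within a group and number, leaving 6 values, neither gene passed. Osmr was then at limma adjusted p = 0.0618 and Il6 at 0.114.

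**Figure D1:**
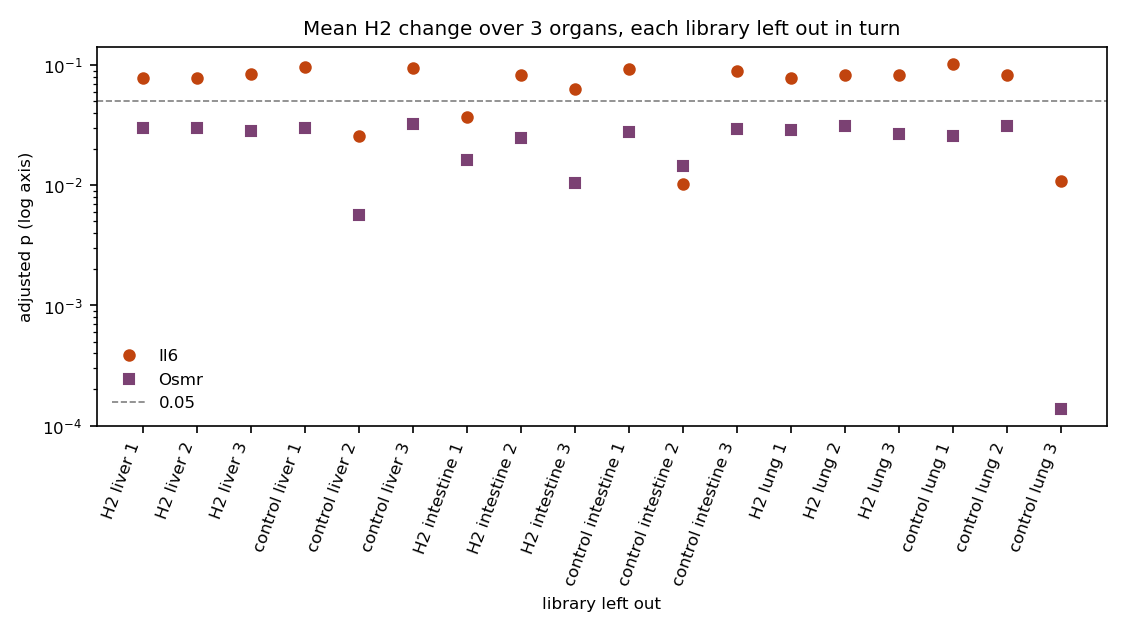
Adjusted p (log axis) of the mean change over the 3 organs for Il6 (circles) and Osmr (squares), with the library named on the x axis left out; the dashed line is 0.05. All 18 squares lie below the line, up to 0.0323, and 4 of the 18 circles do.

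Il6, the ligand that names the family, was near the limit of detection in the H2 livers. It measured 0.158, 0.097 and 0.205 FPKM in H2 livers 1, 2 and 3, against 6.28, 0.869 and 4.91 FPKM in control livers 1, 2 and 3. All 3 H2 livers lay below all control livers, and control liver 2 lay nearest to them. The H2 values are worth an estimated 1.1 to 2.1 fragments each, and the control values 10.5 to 76.2, so a ratio of the means would be imprecise. The change was -1.91 ± 0.47 (SE, limma adjusted p = 0.167), and without control liver 2 it was -2.51 with an adjusted p of 0.00051. With any other liver library left out it did not pass (limma adjusted p up to 0.430).

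In the lung the Il6 groups were also apart. H2 lungs 1, 2 and 3 measured 2.68, 2.09 and 1.87 FPKM, against 103.5, 27.6 and 4.48 FPKM in control lungs 1, 2 and 3. The H2 mean was 2.21 ± 0.42 FPKM and the control mean 45.2 ± 51.8 FPKM (SD, n = 3 each). The control lungs thus spread over a far wider range than the H2 lungs, and control lung 3 lay closest to the H2 lungs. The change was -2.99 ± 0.95 (SE, limma adjusted p = 0.174), and -4.10 without control lung 3 (adjusted p = 0.00785). With any other lung library left out it did not pass (limma adjusted p up to 0.415).

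In the intestine the Il6 groups overlapped. H2 intestines 1, 2 and 3 measured 16.975, 1.74 and 3.03 FPKM, against 49.96, 1.16 and 46.0 FPKM in control intestines 1, 2 and 3. Control intestine 2 was the lowest of all 6, below every H2 intestine, and the other control intestines were the highest. The change was -1.57 ± 1.24 (SE, limma adjusted p = 0.577). With 1 library left out it ran from -3.07 without control intestine 2 (adjusted p = 0.139) to -0.79 without control intestine 1 (adjusted p = 0.883). A test of the difference between organs did not separate the Il6 changes either, with the liver minus the lung at 1.09 ± 1.59 (SE, limma adjusted p = 0.854).

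Fat cell markers and 1 mesothelial marker differed between the intestine groups. The summed FPKM of 3 fat cell genes ran from 0.416 to 63.1 in H2 and from 77.3 to 153 in control intestines, with 2 of the 3 genes without overlap. The sum of 3 mesothelial genes was low, from 0.113 to 0.346 in H2 and 0.574 to 1.04 in control. Only 1 of these 3 was without overlap, Msln, at 0.877 FPKM or less in the intestine. Their part in the intestine values was not tested. In whole tissue, fewer cells of a type and less RNA per cell cannot be told apart.

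Lif, a ligand that acts through Lifr and gp130, showed the same order of groups in the lung as Il6. It measured 1.25, 0.872 and 1.13 FPKM in H2 lungs 1, 2 and 3, against 6.01, 1.33 and 1.35 FPKM in control lungs 1, 2 and 3. The H2 lungs lay below all control lungs, but only control lung 1 lay far above them (-0.70 ± 0.43, limma adjusted p = 0.335). In the intestine Lif was at 2.81, 1.49 and 1.37 FPKM in H2 libraries 1, 2 and 3 and at 6.77, 1.58 and 5.37 FPKM in control libraries 1, 2 and 3. As for Il6, control intestine 2 was far below the other control intestines, and the groups overlapped (-0.83 ± 0.41, adjusted p = 0.431). In the liver Lif was listed at 0.073, 0.022 and 0 FPKM in the H2 libraries and at 0.274, 0.040 and 0.617 FPKM in the control libraries, too low to test.

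Osm encodes oncostatin M, a cytokine known from neutrophils, macrophages and T cells, and was highest in the lung. H2 lungs 1, 2 and 3 measured 10.95, 2.95 and 2.31 FPKM, against 15.4, 7.46 and 6.25 FPKM in control lungs 1, 2 and 3. H2 lung 1 lay above control lungs 2 and 3, so the groups overlapped (-0.89 ± 0.53, limma adjusted p = 0.326). In the intestine Osm was at 1.27, 0.060 and 0.202 FPKM in H2 and 5.41, 0.763 and 0.611 FPKM in control libraries 1, 2 and 3 (-0.88 ± 0.55, adjusted p = 0.497). In the liver it was listed at 0.163, 0 and 0 FPKM in H2 and 0.702, 0.045 and 0.143 FPKM in control libraries, too low to test. In each organ and each treatment the library numbered 1 had the highest Osm value of its group.

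Markers of neutrophils and T cells were set beside Osm. The summed FPKM of 5 neutrophil genes was 18688 to 31664 in H2 and 18218 to 28472 in control lungs, and 2 of the 5 were higher in all H2 lungs. The sum of 5 T cell genes was 6.80 to 8.94 in H2 and 9.61 to 12.8 in control lungs, without overlap, with 2 of 5 lower in all H2 lungs. In the intestine the neutrophil sum ran from 244 to 424 in H2 and from 125 to 1076 in control, and in the liver from 97.9 to 193 in H2 and from 118 to 328 in control. The T cell sum overlapped in the intestine and in the liver, where it was at most 0.227 in H2 and 0.294 in control. The part of these cells in the Osm values was not tested.

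Il11, a ligand produced mostly by stromal cells, was low in every organ. It was listed at 0.042, 0 and 0 FPKM in the H2 livers and at 0.683, 0.046 and 0.099 FPKM in the control livers, where the highest H2 value is worth 1 estimated fragment. In the intestine it was at 1.37, 0.187 and 0.742 FPKM in H2 and 2.91, 0.167 and 1.64 FPKM in control libraries 1, 2 and 3 (-0.43 ± 0.45, limma adjusted p = 0.677). In the lung it was at 0.480, 0.646 and 0.537 FPKM in H2 and 0.693, 0.213 and 0.363 FPKM in control libraries. The groups overlapped in the intestine and the lung.

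**Figure D2:**
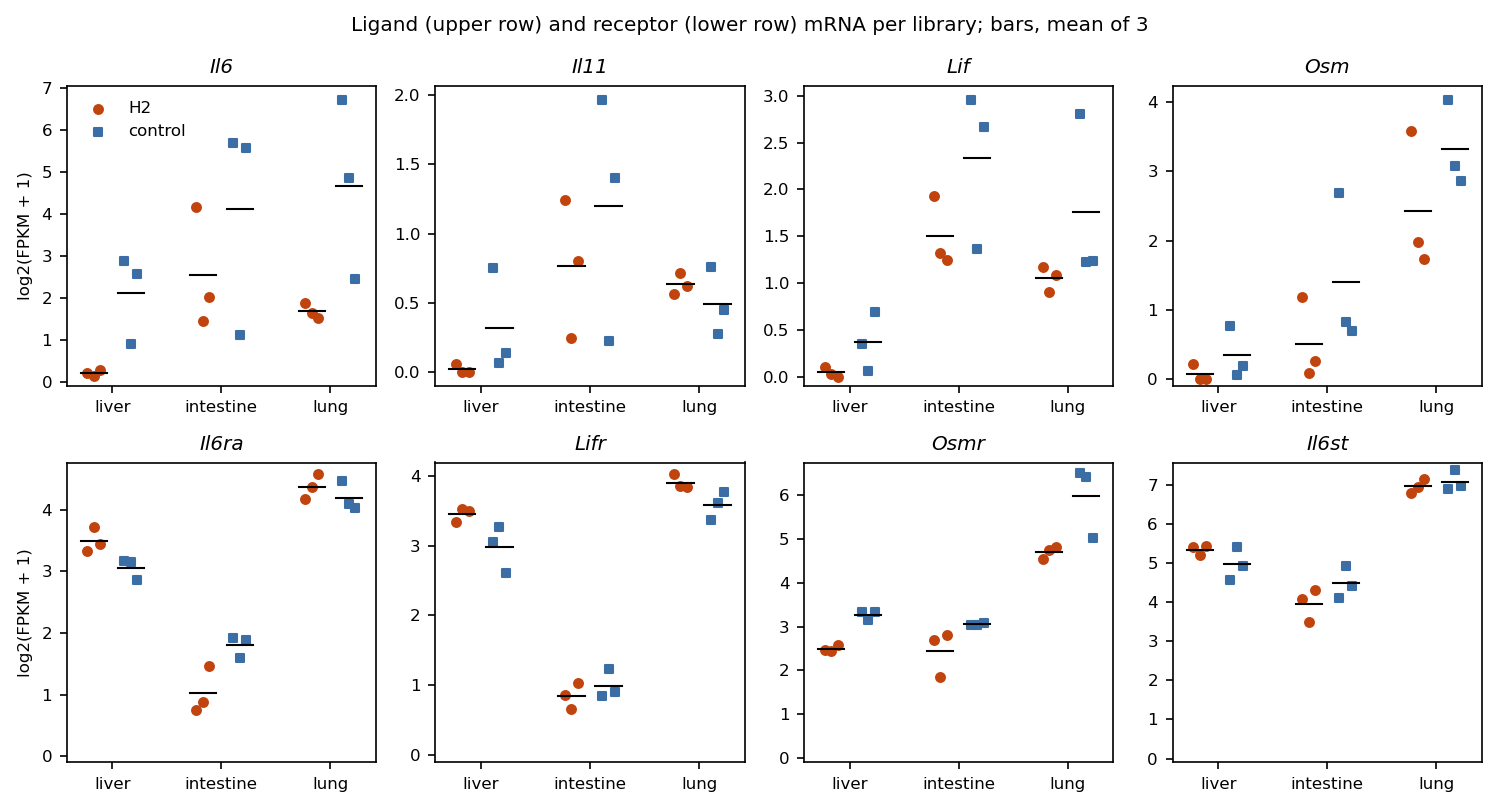
Log2(FPKM + 1) of each member in each library, ligands above and receptor chains below, for H2 (circles, left) and control (squares, right) in each organ; bars are means of 3 libraries, and the panels have their own scales. Osmr lies lower in all H2 libraries of every organ, while Il6st overlaps in each.

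Osmr, the signalling partner of gp130 for oncostatin M, was the only member whose groups were apart in all 3 organs. H2 lay below control without overlap for 13.1% of liver genes tested, 8.75% of intestine genes and 15.9% of lung genes. The share of genes below in all 3 organs was not counted. Osmr measured 4.54, 4.46 and 4.98 FPKM in H2 livers, against 9.09, 7.96 and 9.03 FPKM in control livers 1, 2 and 3. The H2 mean was 4.66 ± 0.28 FPKM and the control mean 8.69 ± 0.63 FPKM (SD, n = 3 each), a gap well beyond the spread of either group. The change was -0.77 ± 0.11 (SE, limma adjusted p = 0.126), the 11th smallest p of the 10041 genes tested in the liver. Without control liver 2 it was -0.83 with an adjusted p of 0.00345. With any other liver library left out it did not pass (limma adjusted p up to 0.430).

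In the lung Osmr measured 22.2, 26.1 and 27.5 FPKM in H2 libraries, against 90.6, 84.1 and 31.8 FPKM in control libraries 1, 2 and 3. The H2 mean was 25.3 ± 2.74 FPKM and the control mean 68.9 ± 32.2 FPKM (SD, n = 3 each), and control lung 3 lay just above the H2 lungs. The change was -1.28 ± 0.38 (SE, limma adjusted p = 0.173), and -1.76 without control lung 3 (adjusted p = 0.00442). With any other lung library left out it did not pass (limma adjusted p up to 0.415).

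In the intestine Osmr measured 5.45, 2.62 and 6.03 FPKM in H2 and 7.23, 7.18 and 7.54 FPKM in control libraries 1, 2 and 3. The control intestines agreed closely with each other, and H2 intestine 2 was the lowest (-0.60 ± 0.25, limma adjusted p = 0.399). H2 intestine 2 also had the largest summed FPKM of all libraries (1142966, against 709826 to 850609 in the other 17). Without it the change was -0.30 (adjusted p = 0.743).

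Groups without overlap were common in these tables. In liver tissue 25.3% of all genes tested had none, 12.2% with H2 above and 13.1% with H2 below. In the intestine these shares were 19.3%, 10.6% and 8.75%, and in the lung 30%, 14.1% and 15.9%. Against that background, Osmr was below in all 3 organs, Il6 in the liver and the lung, Il6ra in the intestine and Lif in the lung, and Il6ra was above in the liver and Lifr in the liver and the lung. Il11, listed at 0 in H2 livers 2 and 3, was below in the liver but is not among the genes tested there.

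Lifr, the receptor chain for LIF, stood higher in the H2 groups of the liver and the lung. It measured 9.08, 10.5 and 10.3 FPKM in H2 livers, against 7.25, 8.60 and 5.12 FPKM in control livers 1, 2 and 3. H2 livers averaged 9.97 ± 0.78 FPKM and control livers 6.99 ± 1.76 FPKM (SD, n = 3 each), without overlap (0.48 ± 0.18, limma adjusted p = 0.206). Without control liver 2 the change was 0.62 with an adjusted p of 0.0283. With any other liver library left out it did not pass (limma adjusted p up to 0.480). In the lung Lifr was at 15.2, 13.4 and 13.2 FPKM in H2 and 9.34, 11.2 and 12.6 FPKM in control libraries 1, 2 and 3 (0.32 ± 0.13, limma adjusted p = 0.214). In the intestine it was at 0.814, 0.589 and 1.04 FPKM in H2 and 0.806, 1.36 and 0.866 FPKM in control libraries, overlapping and under the filter.

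Il6ra, the IL-6 binding chain, lay higher in H2 livers and lower in H2 intestines than in their controls. It measured 9.02, 12.2 and 9.88 FPKM in H2 livers, against 8.01, 7.85 and 6.23 FPKM in control livers 1, 2 and 3. All H2 livers lay above the control livers, although H2 liver 1 by little (0.44 ± 0.15, limma adjusted p = 0.190). In the intestine Il6ra was at 0.690, 0.846 and 1.75 FPKM in H2 and 2.80, 2.02 and 2.68 FPKM in control libraries 1, 2 and 3. There all H2 libraries lay below the control libraries (-0.77 ± 0.23, limma adjusted p = 0.353). In the lung it was at 17.1, 19.5 and 22.8 FPKM in H2 and 21.1, 16.0 and 15.2 FPKM in control libraries, and the groups overlapped (0.18 ± 0.16, adjusted p = 0.499). The 18-library fit put the Il6ra change in the liver 1.21 ± 0.27 above that in the intestine (SE, limma adjusted p = 0.0747, and 0.0191 without control liver 2), where 0.217% of all genes passed this test of difference, 0.127% higher and 0.0898% lower. The intestine minus the lung was -0.95 ± 0.27 (adjusted p = 0.0819, with 1.24% of genes passing, 0.771% higher and 0.471% lower). For the liver minus the lung, at 0.26 ± 0.27, 0.239% of genes passed, 0.165% higher and 0.0748% lower. For Osmr the intestine minus the lung was 0.68 ± 0.43, and without control lung 3 it passed (1.15, limma adjusted p = 0.0231), along with 1035 of 13282 genes. It passed in only 1 of the 18 fits that left out 1 library. With all libraries no member passed any of these tests of difference by limma, and 3 of 7 had an unadjusted p under 0.05 for the liver minus the intestine, 1 for the intestine minus the lung and 0 for the liver minus the lung. In the same order, 2069, 2638 and 1643 of all 13362 genes had such a p.

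Il6st encodes gp130, the chain that every member ligand needs, and was the most abundant receptor chain in every library. It measured 41.2, 35.7 and 42.0 FPKM in H2 livers, against 22.8, 41.7 and 29.4 FPKM in control livers 1, 2 and 3. Control liver 2 lay among the H2 livers (0.37 ± 0.22, limma adjusted p = 0.347), and without it the change was 0.59 with an adjusted p of 0.0272. With any other liver library left out the change did not pass (limma adjusted p up to 0.691). In the intestine Il6st was at 15.9, 10.2 and 18.8 FPKM in H2 and 16.1, 29.3 and 20.3 FPKM in control libraries (-0.52 ± 0.28, adjusted p = 0.466). In the lung it was at 109, 121 and 141 FPKM in H2 and 118, 165 and 124 FPKM in control libraries (-0.13 ± 0.16, adjusted p = 0.642). The lung groups overlapped widely. The difference of the liver and intestine changes, 0.89 ± 0.35, did not pass (adjusted p = 0.245).

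Resident macrophage markers differed between the liver groups in which these receptor values were measured. The summed FPKM of the Kupffer cell genes Clec4f, Vsig4 and Timd4 was 35.5 to 47.9 in H2 and 8.06 to 14.9 in control livers, each of the 3 genes being higher in all H2 livers. The sum of 5 macrophage genes was 108 to 113 in H2 and 75.8 to 78.6 in control livers, with 4 of 5 higher in all H2 livers. The sum of 5 endothelial genes overlapped in the liver, at 18.5 to 25.1 in H2 and 15.9 to 22.4 in control. Of the 5, Kdr, Tek and Emcn were each higher in all H2 livers, and Pecam1 and Cdh5 overlapped. Cdh5 went the other way in its highest values, at 6.93, 5.25 and 4.32 FPKM in H2 and 13.2, 4.16 and 10.6 FPKM in control livers 1, 2 and 3. The hepatocyte sum overlapped, at 17676 to 22142 in H2 and 14371 to 28316 in control livers. In the lung the macrophage sum was 243 to 297 in H2 and 301 to 317 in control, with 1 of 5 genes lower in all H2 lungs. The endothelial sum in the lung was 559 to 831 in H2 and 440 to 562 in control lungs, with 2 of 5 higher in all H2 lungs. The part of these cell types in the member values was not tested.

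**Figure D3:**
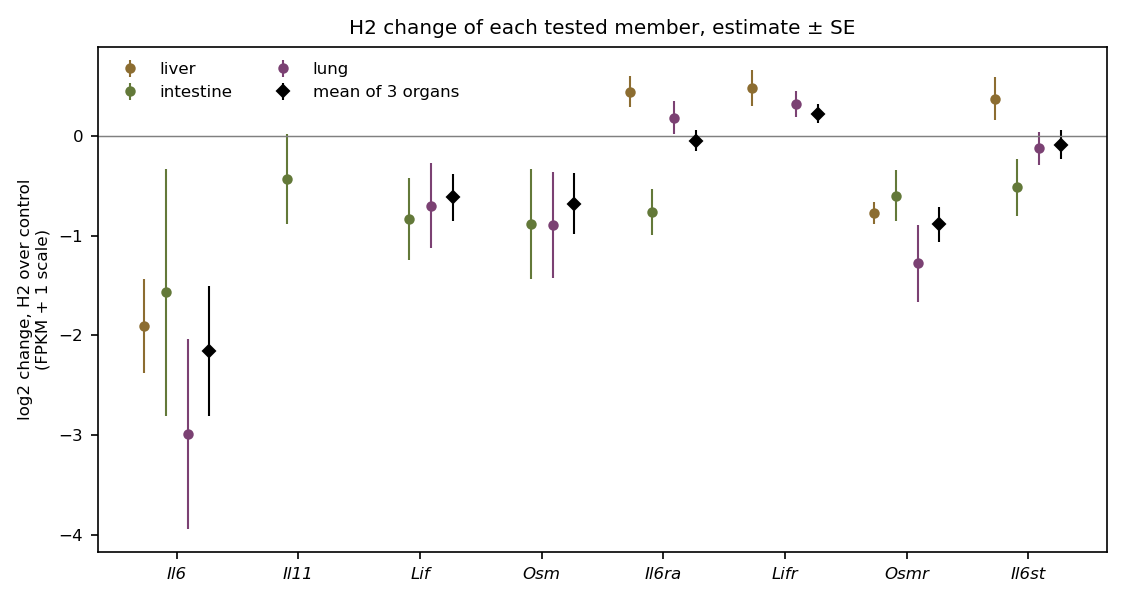
Change of each tested member on the log2(FPKM + 1) scale, H2 over control, ± SE of the limma fit, in the liver, the intestine, the lung and as the mean of the 3 organs (diamonds). The Il6 and Osmr points are all below 0, and the Il6ra point of the intestine (-0.77) lies apart from those of the liver (0.44) and the lung (0.18).

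The ratio of 2 receptor chains within a library does not depend on the scaling of libraries. The ratio of Lifr to Osmr was 2.001, 2.36 and 2.07 in H2 livers, against 0.798, 1.08 and 0.568 in control livers 1, 2 and 3. Lifr thus exceeded Osmr by a clear margin in all H2 livers, and in control livers the chains were at closer levels. In the lung the ratio was 0.685, 0.514 and 0.481 in H2 and 0.103, 0.133 and 0.396 in control libraries 1, 2 and 3, so Osmr was the higher chain in all 6 but by less in H2. The ratio was 2.71-fold higher in H2 in the liver (log2 difference 1.44) and 3.15-fold higher in the lung (1.66), without overlap in either organ. Each gave p = 0.1 in an exact two-sided permutation test, the smallest p that 3 against 3 libraries allow. In both organs Lifr lay above and Osmr below the control libraries without overlap. The ratios therefore had to separate, and this p adds nothing to the results of the single genes. In the intestine the ratio was 0.149, 0.224 and 0.173 in H2 and 0.111, 0.189 and 0.115 in control libraries, with overlap (log2 difference 0.42, exact permutation p = 0.3).

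The ratio of Il6ra to Il6st overlapped between the groups in every organ. Its log2 averaged -1.94 ± 0.35 in H2 and -2.05 ± 0.48 in control livers, -3.85 ± 0.59 in H2 and -3.10 ± 0.69 in control intestines, and -2.64 ± 0.024 in H2 and -2.96 ± 0.44 in control lungs (SD, n = 3 each). The exact permutation p was 0.6 for livers, 0.3 for intestines and 0.4 for lungs. With 6 comparisons of ratios and a smallest p of 0.1, none could pass an adjusted threshold of 0.05.

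**Figure D4:**
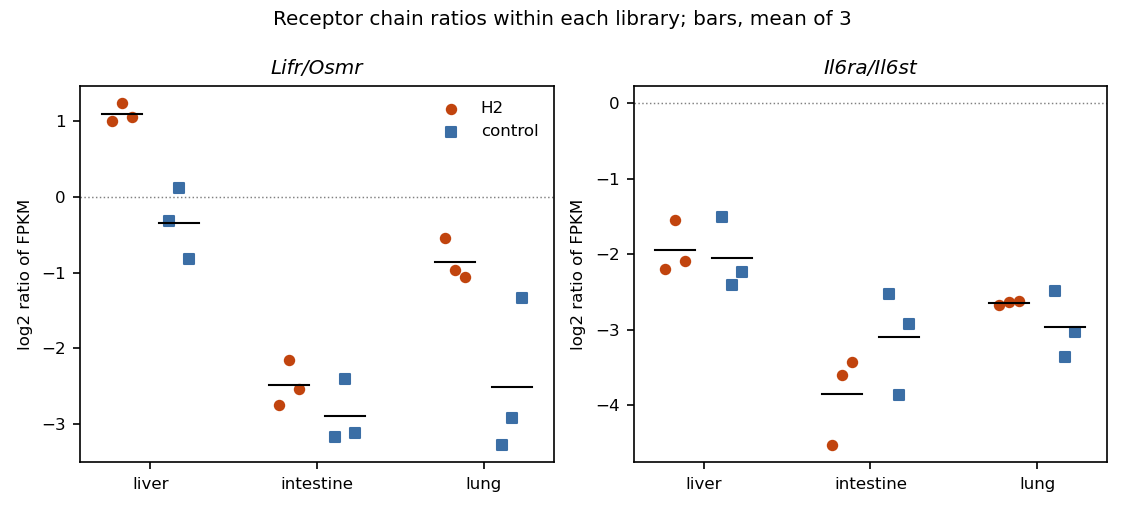
Log2 ratio of FPKM of Lifr to Osmr (left) and of Il6ra to Il6st (right) in each library, H2 (circles, left) and control (squares, right) by organ; bars are means of 3 and the dotted line is equal levels. The H2 points of Lifr/Osmr lie above all control points in the liver and the lung and overlap with them in the intestine.

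Without hydrogen, the lung held the most mRNA of the receptor chains. Il6st averaged 31.3 ± 9.59, 21.9 ± 6.78 and 136 ± 25.3 FPKM in control livers, intestines and lungs (SD, n = 3 each). For Osmr the averages in the same order were 8.69 ± 0.63, 7.32 ± 0.19 and 68.9 ± 32.2 FPKM, for Il6ra 7.36 ± 0.99, 2.50 ± 0.42 and 17.4 ± 3.18 FPKM, and for Lifr 6.99 ± 1.76, 1.01 ± 0.30 and 11.0 ± 1.64 FPKM. Among the ligands, Osm averaged 0.297 ± 0.35, 2.26 ± 2.73 and 9.68 ± 4.94 FPKM, Lif 0.310 ± 0.29, 4.57 ± 2.69 and 2.90 ± 2.70 FPKM, and Il6 4.02 ± 2.81, 32.4 ± 27.1 and 45.2 ± 51.8 FPKM. The order of the organs was thus lung, liver, intestine for the means of all 4 receptor chains, although limma did not call Il6st or Osmr between the liver and the intestine. The control values of Il6st overlapped between these organs and those of Osmr did not.

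In limma's 18-library fit all 7 tested members were lower in the control liver than in the control lung, where 85.1% of all genes were called, 76% lower and 9.15% higher, and the median of all genes was -1.17. The call of Il6 (-2.56, adjusted p = 0.044) held in 7 of the 18 fits that left out 1 library and was lost without control liver 2 (-1.95, adjusted p = 0.157). Osm was at -2.98, Osmr at -2.71 and Il6st at -2.11, all below that median, while Il6ra at -1.13 and Lifr at -0.61 were not. After median-of-ratios scaling, which put the median of all genes at -0.044, Il6ra was at 0.17 and not called, and Lifr was called higher in the liver at 0.67. Between the control intestine and the control lung 5 members were lower in the intestine (68.9% of all genes called, 51.3% lower and 17.6% higher, median -0.45): Osmr -2.93, Il6st -2.60, Lifr -2.58, Il6ra -2.39 and Osm -1.93. Il6 (-0.55 ± 1.12) and Lif (0.58 ± 0.41) were not called there. The control liver had more Lifr (1.98) and Il6ra (1.26) than the control intestine, and less Lif (-1.97), where 72.6% of all genes were called, 12.6% higher and 60% lower. Osmr (0.22), Il6st (0.50), Osm (-1.05) and Il6 (-2.004) were not called between these organs. Organ and any preparation of libraries by organ cannot be told apart.

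Of the genes that carry or limit gp130 signals, 6 of 21 tested fell over the 3 organs and 0 rose, against 5.23% of all genes lower. The median of the list was -0.17. The feedback inhibitor Socs1 fell by 1.27 (SE 0.22, limma adjusted p = 0.00893), the transcription factor Stat3 by 0.63 (SE 0.13, adjusted p = 0.0177), the gp130 feedback inhibitor Socs3 by 0.92 (SE 0.22, adjusted p = 0.0281) and the inhibitor Cish by 0.57 (SE 0.15, adjusted p = 0.0363). The other genes that fell were the phosphatase gene Ptpn11 and the adaptor gene Shc1. The list of 22 names, of which 21 were found, was chosen with earlier results of these data known, and its genes also answer to other cytokines. The count of genes that fell ran from 2 to 8 with each library left out, was 7 without control liver 2 and 8 without control lung 3, and was 0 without the libraries numbered 1. It was 4 or more only without control liver 2, control lung 3, control intestine 2, H2 intestine 2 or H2 intestine 3, while Socs1 and Stat3 fell in each of these 18 fits. With 1 mean over the organs only Socs1 fell. The JAK kinase gene Tyk2 was called higher after quantile and median-of-ratios scaling and without control liver 2, control lung 3 or H2 intestine 1, and array weights gave 2 higher and 9 lower.

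Control lung 3 and control liver 2, which lay nearest to the H2 libraries for Il6, did so for Socs3 and Stat3 too. Control intestine 2, the lowest intestine library for Il6, was the control intestine nearest to the H2 intestines for both genes. Socs3 measured 60.9, 60.5 and 52.3 FPKM in H2 lungs, against 301, 281 and 69.4 FPKM in control lungs 1, 2 and 3. Stat3 measured 48.5, 60.8 and 68.7 FPKM in H2 lungs and 144, 119 and 68.1 FPKM in control lungs 1, 2 and 3. In both genes control lung 3 lay at or next to the level of the H2 lungs. In the liver Stat3 was at 43.4, 46.6 and 43.6 FPKM in H2 and 76.0, 51.0 and 72.3 FPKM in control libraries 1, 2 and 3, with control liver 2 nearest to H2. Socs3 was at 40.5, 52.2 and 47.9 FPKM in H2 livers and 74.6, 53.6 and 72.7 FPKM in control livers, in the same order. In the intestine Stat3 was at 31.8, 45.4 and 42.8 FPKM in H2 and 61.7, 51.9 and 56.2 FPKM in control libraries 1, 2 and 3. Socs3 was at 94.9, 69.8 and 73.8 FPKM in H2 and 156, 99.3 and 117 FPKM in control intestines. Control intestine 2 was the lowest control library in both genes and lay above every H2 intestine, as control liver 2 lay above every H2 liver. Socs1 was at 6.92, 9.53 and 8.83 FPKM in H2 livers and 26.7, 11.2 and 31.03 FPKM in control livers, without overlap. In the intestine Socs1 was at 15.8, 9.93 and 8.06 FPKM in H2 and 27.1, 35.9 and 21.8 FPKM in control libraries, again without overlap.

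**Figure D5:**
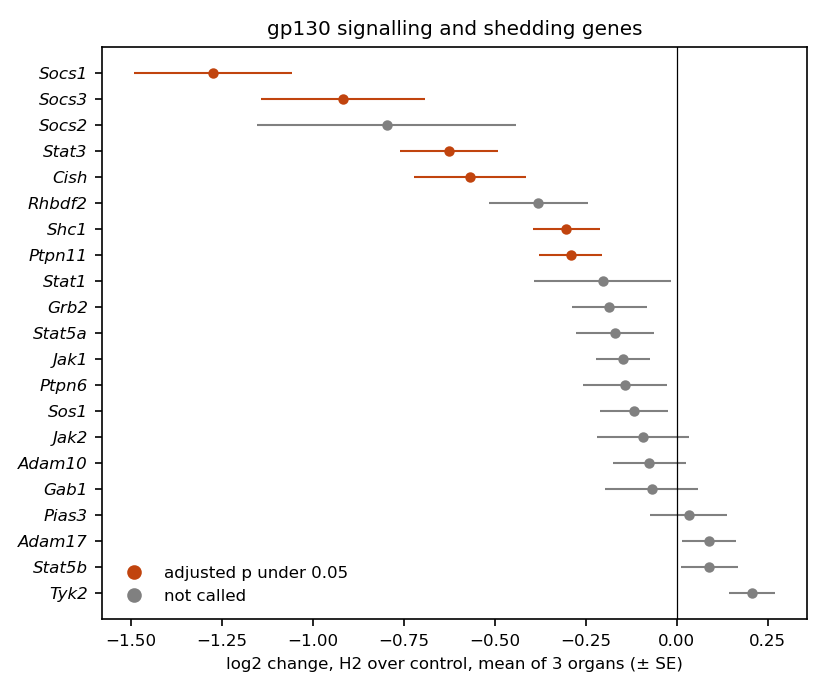
Mean change over the 3 organs (log2, H2 over control, ± SE) of the 21 tested genes of gp130 signalling and receptor shedding, with those at an adjusted p under 0.05 in red. The 6 called genes lie between -1.27 (Socs1) and -0.29 (Ptpn11), and the median of the list is -0.17.

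Among 28 genes of the acute phase or driven by STAT3, 17 fell over the 3 organs and 0 rose, against 5.23% of all genes lower, with a median of -0.67. This list too was chosen with earlier results of these data known, so the count is no test of the list. The acute-phase glycoprotein gene Orm1 was at -1.38 ± 0.21 (limma adjusted p = 0.00736), the protease inhibitor gene A2m at -0.47 ± 0.072 (adjusted p = 0.00736), the metalloreductase gene Steap4 at -0.9998 ± 0.19 (adjusted p = 0.0116) and the transcription factor gene Cebpb at -0.72 ± 0.14 (adjusted p = 0.0116). The count ran from 9 to 21 with each library left out, with 11 or fewer without control liver 1 or 3, H2 liver 1 or 3, or H2 lung 2 or 3, 19 without control liver 2 and 21 without control lung 3. It was 0 without the libraries numbered 1. With 1 mean over the organs it was 2. In no single organ did a gene of the list pass. Orm1 did not fall in the liver (0.059), where it is most abundant. Its mean change comes from the intestine (-2.04), where it was at 9.26 FPKM or less, and the lung (-2.16). A2m was at 0.586 FPKM or less in the intestine and the lung, where log2(FPKM + 1) can hardly fall, so its mean change comes from the liver (-1.17). The serum amyloid gene Saa2, given by organ after its values were seen, was at 0.030 in liver, -0.33 in intestine and -2.75 in lung tissue, and the difference of the liver and lung changes was 2.78 ± 0.48 (limma adjusted p = 0.0266).

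The rest of the family was sparse in these organs. Of 13 further ligand and receptor genes 7 were tested over the 3 organs and 0 were called by limma, with 2 higher and 2 lower at an unadjusted p under 0.05. Of all 13362 genes tested, 2055 were higher and 2046 lower at such a p. Clcf1, a cardiotrophin-like ligand, was at -0.45 ± 0.15 (adjusted p = 0.0681), the cardiotrophin gene Ctf1 at 0.32 ± 0.12 (adjusted p = 0.096), the ciliary neurotrophic factor gene Cntf at -0.27 ± 0.11 (adjusted p = 0.114) and the IL-11 receptor gene Il11ra1 at 0.18 ± 0.085 (adjusted p = 0.161). Clcf1 was called lower and Ctf1 higher without control liver 2, control intestine 2 or control lung 3, and Clcf1 also without H2 intestine 3. The receptor gene Cntfr was called lower at a pseudocount of 5, and array weights gave 2 higher and 3 lower. Il11ra1 was present in each organ while its ligand was low, at 26.0 to 28.7 FPKM in H2 and 19.9 to 30.6 FPKM in control lungs. Il31 and Il11ra2 were listed at 0 in every library.

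The likeness of 2 genes was taken as the cosine of their log2(FPKM + 1) values over the 18 libraries, after subtracting the mean of each organ, which leaves the H2 difference and the spread between libraries. Among the members Il6 and Lif were most alike (0.895), and Il6 was also like Osmr (0.788) and Osm (0.689) and opposite to Lifr (-0.646). Over 13360 other genes, the 3 most like Il6 were Csf3, the granulocyte growth factor (0.968), the peptidase inhibitor gene Pi15 (0.961) and the calcium channel gene Orai2 (0.952). For Lif they were the bradykinin receptor gene Bdkrb2 (0.938), the growth factor gene Hbegf (0.925) and Ramp3 (0.923), and for Osm they were Ly6i (0.885), the IL-36 ligand gene Il1f9 (0.875) and Lypla2 (0.866). The genes most like Osmr were the translation factor gene Eif3b (0.935), the transcription factor gene Myc (0.932) and the atypical chemokine receptor gene Ackr3 (0.932). Lifr was most like the scavenger receptor gene Colec12 (0.928), Pomgnt2 (0.915) and Dixdc1 (0.909). Il6ra was most like the amino acid transporter gene Slc7a2 (0.910), 5031439G07Rik (0.886) and Kremen1 (0.879), and Il6st most like Hdgfrp2 (0.871), Tcf7l1 (0.848) and Lrig1 (0.831). All pairs share libraries and depth, so these values describe the 18 libraries and carry no test.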

How the data were processed

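Poly(A) RNA of 18 libraries was measured. Per the labels' protocols, miRNeasy Micro kits gave the RNA and the TruSeq stranded mRNA kit the libraries. Mapping and quantification used Bowtie2 2.2.3, TopHat2 2.0.13, Cufflinks 2.2.1, SAMtools 0.1.19 and mouse build mm10, per the submitters' processing notes; annotation and options are not given in the sources used here. FPKM were deposited by the authors, with 24346 symbols, of which 4694 are at 0 in every library. In the file of control lung 2, 1 further column equals control lung 3 (0 values differ) and was not used. Groups follow the sample titles; the description fields of H2 libraries 2 and 3 give the gas a different number, taken for a typing error. Of 92 genes used by all cells, 4 are at 0 in at least 1 library, so a gene at 0 is called listed at 0. Files of FPKM hold no counts: depth and fragments were estimated from the value of 1 fragment over 3797 genes with 1 transcript, and no interval was drawn from them.

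Tests ran on log2(FPKM + 1) in limma 3.58.1 under R 4.3.3 (empirical Bayes with trend, two-sided) for genes whose mean FPKM was 1 or more, by organ (6 libraries) and in 1 fit of 18 libraries for the mean of the 3 organs, the differences between organs and the control organs. Benjamini-Hochberg adjustment covered all genes tested, and genes under 0.05 were called. A fold change on this scale understates the change of low genes. Receptor ratios were tested by exact permutation (scipy 1.17.1). Of these steps, only the limma test within an organ was tried on simulated data. The members and lists were chosen with earlier results of these data known. Named are all members, up to 4 genes of each list with the smallest p, and the 3 genes most like each member; Saa2, Socs1 and others given by library beyond this were chosen after their values were seen. Promoters are from RefSeq (GRCm38.p6) and positions from GENCODE vM21. Other settings were pseudocounts of 0.1 and 5, no filter and a mean of at least 5, quantile and median-of-ratios scaling, no trend, robust fits, array weights, a replicate block, each library left out, all libraries numbered 1 left out, all 18 libraries in 1 fit, and 1 mean over organs; list counts under them were added after the data were seen.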

Additional observations from a re-analysis of the deposited data

Results flagged for a closer look

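The H2 change of Il6ra differed in sign between organs: every H2 liver lay above every control liver, and every H2 intestine below every control intestine. Of all genes tested, 12.2% in the liver had H2 above and 8.75% in the intestine had H2 below without overlap. How many genes did both was not counted. The difference of the 2 Il6ra changes was 1.21 on the log2 scale (limma adjusted p = 0.0747 over 13362 genes), so the test of the difference itself did not pass. It passed without control liver 2 (1.25, adjusted p = 0.0191), without H2 intestine 3 (1.42, adjusted p = 0.00826) and with array weights (1.36, adjusted p = 0.00459). These were the only ones of the 29 settings tried for Il6ra in which it passed. Over all genes, 779 of 13429, 363 of 13377 and 1386 of 13362 passed in them, in the same order. In the main fit 29 of 13362 genes passed.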

How the results depend on the processing

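Values are numbers of members called unless a change is named. With array weights, which weigh libraries by their fit, the count was 4 in the liver, 5 in the lung, 4 over the 3 organs, 2 for the liver minus the lung, 2 for the intestine minus the lung, 3 for the liver minus the intestine and 5 between control liver and intestine. All genes called were then 2520 of 10041 in the liver and 7137 of 13424 in the lung. Of 13362 genes, 5655 were called over the 3 organs, 3220 for the liver minus the lung and 2727 for the intestine minus the lung. For the liver minus the intestine 1386 were called, and 10616 between control liver and intestine. With all 18 libraries in 1 fit the count of members was 1 in the lung, with 535 of 13362 genes called. Over the 3 organs it was 1 at a pseudocount of 5 (1233 of 13362 genes called), without a filter (955 of 19652) and with a robust fit (1295 of 13362). It was 0 there without replicate 1 of every group (13 of 13346) and with 1 mean over the organs (16 of 13362). Quantile and median-of-ratios scaling gave 4 between control liver and lung (9263 and 9327 of 13362 genes) and 5 between control liver and intestine (8111 and 8253). With each library left out, the counts ranged from 0 to 4 in the liver, from 0 to 2 in the lung, from 1 to 3 over the 3 organs, from 0 to 1 for the intestine minus the lung and for the liver minus the intestine, from 6 to 7 between control liver and lung, and from 3 to 5 between control liver and intestine. All genes called then ranged from 0 to 2834 in the liver (2834 without control liver 2), 2 to 28 in the intestine, 1 to 3295 in the lung (3295 without control lung 3) and 312 to 2814 over the 3 organs. They ranged from 18 to 1035 for the intestine minus the lung and from 10 to 779 for the liver minus the intestine. Between control liver and lung they ranged from 11007 to 11488, and between control liver and intestine from 9122 to 9823. The replicate block gave 3 members over the 3 organs (Il6, Osm and Osmr) with 1337 genes, and 0 in each organ; the labels do not say what a number marks, and same-numbered H2 and control libraries were not taken as paired (correlations of same-numbered deviations 0.325, -0.0701 and 0.0361 in the liver, 0.156, -0.115 and -0.0283 in the intestine and -0.00545, 0.122 and 0.00652 in the lung). Between organs these correlations ran from -0.182 to 0.212, and were 0.185, 0.212 and 0.0978 for control liver and intestine, so whether a number marks 1 mouse is not settled here. Between control liver and lung 6 were called without a filter (14123 of 19652 genes) and with a robust fit (11369 of 13362), and 5 without replicate 1 (10789 of 13346). Among Il6, Il6ra, Il6st, Lifr and Osmr signs changed only in results that were not called or between control organs: Il6st in the lung was 0.034 after quantile normalization and from -0.22 to 0.021 with each library left out (0.021 without control lung 2); Il6ra over the 3 organs was 0.053 at a pseudocount of 5, 0.038 after quantile normalization and 0.14 without replicate 1. For the liver minus the lung, Il6 was -0.29 at a pseudocount of 0.1 and Lifr from -0.021 (without control liver 3) to 0.30 with each library left out. For the intestine minus the lung Il6 was from -0.078 (without control intestine 2) to 2.53. For the liver minus the intestine Il6 was 0.53 at a pseudocount of 5, 0.18 with array weights, 0.0704 without replicate 1, and from -1.11 to 1.16 with each library left out (0.041 without control liver 1, 1.16 without control intestine 2 and 0.48 without H2 intestine 1), and Osmr was from -0.47 to 0.0075 (without H2 intestine 3). Between control liver and lung Il6ra was 0.088 (quantile) and 0.17 (median-of-ratios) and Lifr 0.67 in both. Between control intestine and lung Il6 was 0.51 with array weights and from -1.66 to 0.95 with each library left out (0.95 without control intestine 2 and 0.47 without control lung 1). Organ differences of Lif and Osm, called in no setting, lay on both sides of 0: over all settings from -0.39 to 0.64 for Lif and -0.079 to 1.2 for Osm (liver minus lung), -0.81 to 0.18 and -0.83 to 0.65 (intestine minus lung), and -0.32 to 0.99 and -0.16 to 0.97 (liver minus intestine). The cause of these moves was not tested. Depth limits Il6, Il11, Lif and Osm in the liver, where H2 values are worth a few estimated fragments.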
